A study of Mus musculus with 6 samples.

Results

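The Hox genes of the mouse were followed across stromal cells with and without a hairpin against Smoothened. Members were all genes whose single symbol in the platform annotation was Hoxa, Hoxb, Hoxc or Hoxd with a number. This gave 37 Hox genes of 22103 genes with a single symbol, of which 10 lie in the HoxA cluster on chromosome 6, 10 in HoxB on chromosome 11, 9 in HoxC on chromosome 15 and 8 in HoxD on chromosome 2. Hoxd4 was covered only by probe sets annotated to Hoxd3 as well, and is not a member.

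Hox genes encode homeodomain transcription factors that set the identity of positions along the head-to-tail axis of the embryo. Within each of the 4 clusters, genes with a low paralog number lie at the end that retinoic acid opens first and are expressed further forward, and genes with a high number act further back and in the limbs. Adult mesenchymal cells, including bone marrow stroma, keep a pattern of Hox expression that reflects where in the body they arose. Hedgehog signalling, which passes through the membrane protein Smoothened (Smo), acts upstream of Hox genes in the developing limb.

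The cells were OP9, a stromal line from mouse bone marrow that supports the growth of lymphoid cells in culture. All of them carried a stably integrated pLKO.1-Puro lentiviral hairpin. In Smo shRNA cells (Smo-kd, 3 arrays) it targeted Smoothened, and in control shRNA cells (NT, 3 arrays) it was scrambled. RNA was taken 3 times from each stable population. The p-values therefore reflect the spread among those RNA samples, which may be technical, and effects of the hairpin cannot be told apart from other differences between the populations.

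Total RNA was hybridised to Affymetrix Mouse Exon 1.0 ST arrays, on which each gene is read by several probe sets placed along its exons. A gene value here is the log2 intensity joined over the gene's probe sets that reached the median of all probe sets (6.56), and a gene needed 3 such probe sets to be tested. Because each gene has its own probes, gene values were compared between groups and not between genes. Where a level is set beside those of marker genes, it is a rough guide only. Each difference is a log2 value, Smo shRNA minus control shRNA, with limma's moderated standard error (SE), and a gene passed at a Benjamini-Hochberg adjusted p below 0.05 over all 16871 tested genes.

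The hairpin's target stood at 11.32, 11.36 and 11.44 on the Smo shRNA arrays, against 12.29, 12.22 and 12.24 on the control arrays. Smo was thus 1.83-fold lower (log2 difference -0.88, SE 0.04, limma adjusted p = 1.13e-09), and 26 of its 26 probe sets lay lower. Over all tested genes, 21.3% were higher and 17.4% were lower in Smo shRNA cells, 38.6% in either direction, with a median log2 difference of 0.01. Of 12 mesenchymal stroma markers, 12 were tested, 0 rose and 7 fell, with levels of 7.04 to 14.01 in Smo shRNA and 7.27 to 14.03 in control cells. Of 15 markers of blood cells, endothelium and epithelium, 14 were tested and 0 passed by limma (0 also at an unadjusted p below 0.05), with levels of 7.12 to 8.68 in Smo shRNA and 7.06 to 8.60 in control cells. What part a shift among stromal cell states had in the Hox values was not tested.

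The promoters of 4 HoxA genes are shown because 3 of these genes fell and their neighbour Hoxa7 did not pass the test. Each stretch runs from 250 bases before the RefSeq start to 50 bases after it (mouse GRCm38.p6, minus strand, written in the direction of the gene). They lie at chr6:52164782-52165081 (Hoxa2), chr6:52204538-52204837 (Hoxa5), chr6:52208623-52208922 (Hoxa6) and chr6:52218524-52218823 (Hoxa7). Capitals mark matches, on either strand, to CCAAT (the CCAAT box, read as ATTGG on the other strand) and AGGTCA (a half-site of the kind bound by retinoic acid receptors).
Hoxa2: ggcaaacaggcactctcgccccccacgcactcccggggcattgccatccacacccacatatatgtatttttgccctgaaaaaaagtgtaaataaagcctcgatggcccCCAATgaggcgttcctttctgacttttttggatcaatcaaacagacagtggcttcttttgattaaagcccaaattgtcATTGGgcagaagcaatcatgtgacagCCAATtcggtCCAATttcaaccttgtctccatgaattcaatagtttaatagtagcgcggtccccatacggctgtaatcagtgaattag
Hoxa5: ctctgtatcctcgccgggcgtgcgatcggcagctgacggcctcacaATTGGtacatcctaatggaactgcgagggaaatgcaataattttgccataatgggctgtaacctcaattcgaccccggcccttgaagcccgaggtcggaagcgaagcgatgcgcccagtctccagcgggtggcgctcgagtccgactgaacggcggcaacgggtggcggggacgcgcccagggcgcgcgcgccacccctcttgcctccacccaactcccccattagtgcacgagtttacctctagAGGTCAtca
Hoxa6: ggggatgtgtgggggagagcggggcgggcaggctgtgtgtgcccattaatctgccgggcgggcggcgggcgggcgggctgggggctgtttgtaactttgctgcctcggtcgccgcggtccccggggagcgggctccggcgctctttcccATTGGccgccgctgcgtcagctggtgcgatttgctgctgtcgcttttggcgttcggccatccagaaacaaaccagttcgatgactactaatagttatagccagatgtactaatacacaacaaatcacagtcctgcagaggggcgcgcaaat
Hoxa7: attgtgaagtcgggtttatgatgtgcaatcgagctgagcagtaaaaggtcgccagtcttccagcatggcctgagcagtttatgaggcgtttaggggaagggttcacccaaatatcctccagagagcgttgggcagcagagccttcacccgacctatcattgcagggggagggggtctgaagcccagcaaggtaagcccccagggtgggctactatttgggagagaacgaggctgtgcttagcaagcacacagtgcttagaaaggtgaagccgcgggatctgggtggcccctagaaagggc
The Hoxa2 stretch holds 4 CCAAT matches and the Hoxa5 and Hoxa6 stretches 1 each, the Hoxa5 stretch also holds an AGGTCA near its end, and the Hoxa7 stretch holds neither. Hoxa3 fell too, and its window, which is not shown, also holds neither. That window (chr6:52213018-52213317) lies between those of Hoxa6 and Hoxa7, and no other Hoxa3 start was searched. A further search covered GACCACC, the core of the site bound by the Gli factors of the Hedgehog pathway, and TATAAA, the TATA box, and no motif searched contains another.

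RefSeq windows were at hand for 21 of the 37 Hox genes, 23 windows in all because some genes have 2 starts. GACCACC occurred in 0 of the 23 and in 2.80% of 32841 windows of the same length over all genes. AGGTCA occurred in 6 of the 23 and in 16.3% of all windows, TATAAA in 3 and 13.6%, and CCAAT in 14 and 37.4%. Among HoxA genes with a window, CCAAT stood in 4 of the 5 that fell (not in Hoxa3, and for Hoxa10 in 1 of its 2 windows). It stood in 0 of the 3 that were tested and did not pass. Among HoxB and HoxD genes with a window, it stood in 7 of the 10 that were tested and did not pass. Hox windows were also richer in CpG, with a median of 15 per window against 7 over all windows. These matches describe letters in a fixed window and were not tested as binding sites.

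Of the 37 Hox genes, 32 could be tested, and 7 of them (21.9%) were lower in Smo shRNA cells, beside 17.4% of all genes. None was higher by limma (0 also at an unadjusted p below 0.05), and 25 did not pass. The share of lowered Hox genes is therefore close to that of all genes. By position, HoxA held 6 of the 7, HoxC held 1, and HoxB and HoxD held 0. Sorted by paralog number, the lowered genes belonged to groups 2, 3, 4, 5, 6, 8 and 10, with 1 gene in each. No test of a difference between clusters was made.

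**Figure D1:**
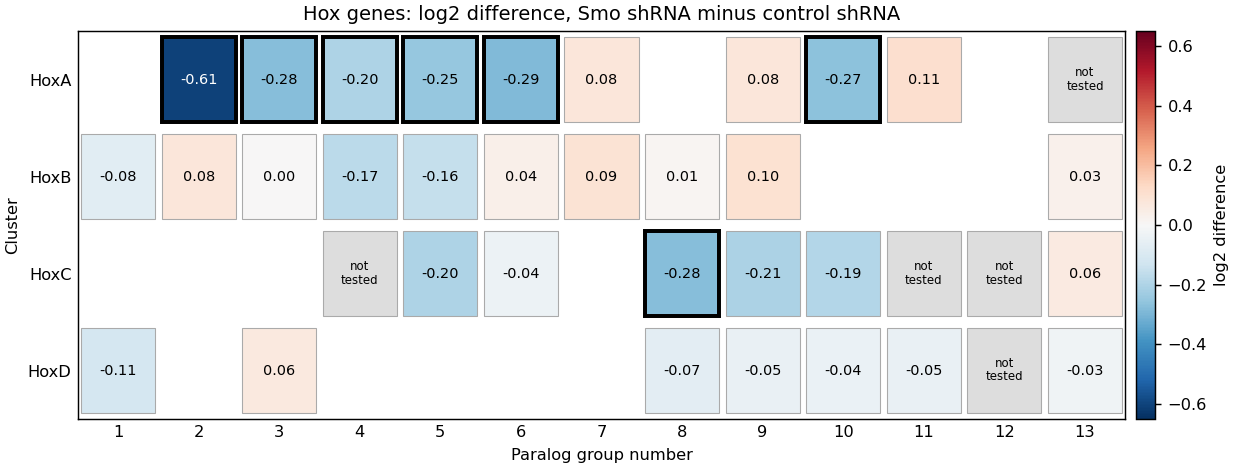
Log2 difference, Smo shRNA minus control shRNA, for each Hox gene by cluster (rows) and paralog group number (columns). Blue is lower in Smo shRNA cells, heavy frames mark the 7 genes past the threshold, and grey cells are members with too few probe sets to test; the run of heavy frames covers HoxA groups 2 to 6.

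The count of lowered Hox genes, 7 with all arrays, depended on single arrays. It was 2 when Smo shRNA replicate 2, control replicate 1 or control replicate 2 was left out, 4 when replicate 3 of either group was left out, and 5 when Smo shRNA replicate 1 was. The 5 include Hoxc9, and the 4 without control replicate 3 include Hoxd10, neither of which is among the 7. Hoxa2 was called in 6 of these 6 fits, Hoxa5 in 4, Hoxa3, Hoxa4 and Hoxa6 in 2 each, Hoxa10 in 1 and Hoxc8 in 0.

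The HoxA genes of paralog groups up to 6 were lower in 5 of 5 tested cases, with a median log2 difference of -0.28. They take part in patterning the hindbrain, neck and upper trunk. Of their 27 tested probe sets, 27 lay lower in Smo shRNA cells and 12 passed the test on their own. A Hoxa6 probe set among the 27, not among the 12, passed the filter only through its control arrays. Over all genes 12.4% of probe sets passed in the lower direction. The RefSeq start used here for Hoxa3 lies upstream of the Hoxa5 and Hoxa6 windows, on the same strand. A transcript from it would run through both genes, so the 27 probe sets may not be independent readings. How far these genes share signal was not tested.

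Hoxa2, which specifies the second pharyngeal arch and hindbrain segments, differed most among Hox genes. Its values were 10.94, 11.02 and 10.92 on the Smo shRNA arrays, against 11.58, 11.54 and 11.58 on the control arrays. The groups lay far apart relative to their own spread, with means of 10.96 ± 0.05 and 11.57 ± 0.03 (SD, n = 3 each). Hoxa2 was 1.52-fold lower in Smo shRNA cells (log2 difference -0.61, SE 0.04, 95% confidence interval -0.70 to -0.52, limma adjusted p = 6.22e-08). Its 5 probe sets all lay lower, by -0.88 to -0.38, and 4 passed. Among all tested genes, 3.15% (532 genes) had a log2 difference as low or lower. The call held in 15 of 15 alternative settings, with differences of -0.66 to -0.58.

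Hoxa3, needed for the thymus and parathyroid, had values of 9.72, 9.80 and 10.01 on the Smo shRNA arrays, against 10.22, 10.12 and 10.04 on the control arrays. The groups did not overlap, but the highest Smo shRNA array came close to the lowest control array. The gene was 1.21-fold lower (log2 difference -0.28, SE 0.07, limma adjusted p = 0.00793), with 7 of 7 probe sets lower and 4 past the threshold. It missed the threshold without Smo shRNA replicate 1 (limma adjusted p = 0.125) or 2 (0.126) and without control replicate 1 (0.0863) or 2 (0.0761).

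Hoxa4, which helps to shape the cervical vertebrae, had values of 10.09, 9.91 and 9.91 on the Smo shRNA arrays, against 10.25, 10.20 and 10.06 on the control arrays. Here the groups overlapped, since Smo shRNA replicate 1 exceeded control replicate 3. The difference was the smallest of those that passed (log2 difference -0.20, SE 0.07, limma adjusted p = 0.0268, 1.15-fold), and 7 of 7 probe sets lay lower, 3 of them past the threshold. It missed the threshold without Smo shRNA replicate 2 (limma adjusted p = 0.175) or 3 (0.169) and without control replicate 1 (0.205) or 2 (0.182).

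Hoxa5, required for the developing airways and the neck-to-trunk boundary of the skeleton, had values of 9.92, 9.80 and 9.74 on the Smo shRNA arrays, against 10.13, 9.98 and 10.11 on the control arrays. The highest Smo shRNA array stayed below the lowest control array. Hoxa5 was 1.19-fold lower (log2 difference -0.25, SE 0.06, limma adjusted p = 0.00524), with 4 of 4 probe sets lower and 1 past the threshold. It missed the threshold without control replicate 1 (limma adjusted p = 0.0758) or 3 (0.0615).

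Hoxa6, a gene of the cervical and upper thoracic skeleton, had values of 9.27, 9.48 and 9.53 on the Smo shRNA arrays, against 9.63, 9.67 and 9.84 on the control arrays. The groups did not overlap. The gene was 1.22-fold lower (log2 difference -0.29, SE 0.08, limma adjusted p = 0.00837). All 4 of its probe sets lay lower, by -0.67 to -0.10, but 0 passed over all probe sets (limma, 2 at an unadjusted p below 0.05), so its call rests on the joined value. The probe set with -0.67 read 6.25 in Smo shRNA cells, below the filter level (6.56), and 6.92 in control cells. It was kept through the control arrays, so its direction is not independent of the filter. The others differed by -0.31 to -0.10. It missed the threshold without Smo shRNA replicate 1 (limma adjusted p = 0.107) or 2 (0.0598) and without control replicate 2 (0.0652) or 3 (0.082).

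**Figure D2:**
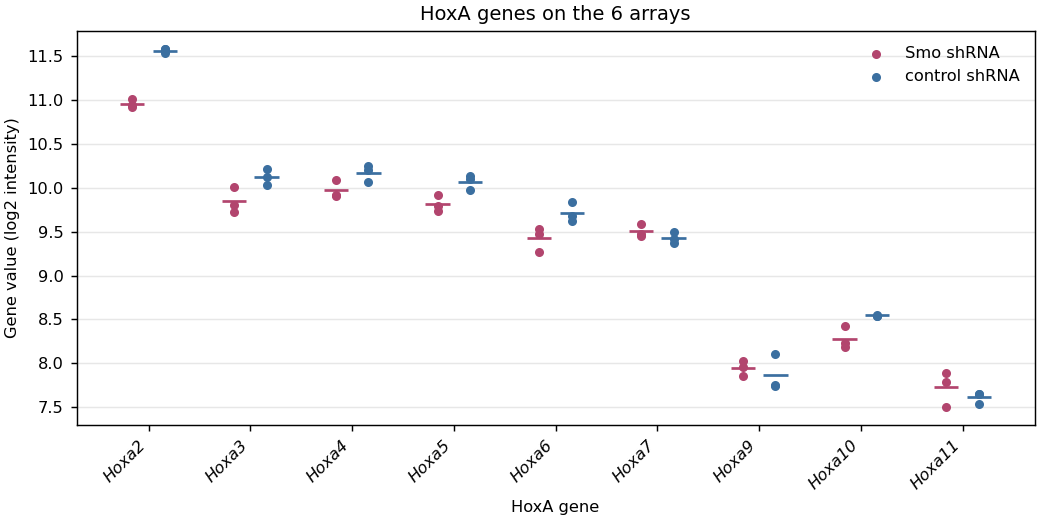
Gene values (log2 intensity) of the 9 tested HoxA genes, 1 point per array and a bar at each group's mean, Smo shRNA left of control shRNA. The groups are separate for Hoxa2, Hoxa3, Hoxa5, Hoxa6 and Hoxa10, and overlap for Hoxa4, Hoxa7, Hoxa9 and Hoxa11.

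Beyond Hoxa6 the pattern of the HoxA cluster was mixed. Of the 4 tested genes of groups from 7 upward, 1 was lower and 3 did not pass, and their median log2 difference was 0.08. Hoxa7, next to Hoxa6, had values of 9.59, 9.48 and 9.45 on the Smo shRNA arrays, against 9.37, 9.49 and 9.42 on the control arrays. These values overlapped (log2 difference 0.08, 95% confidence interval -0.05 to 0.21, limma adjusted p = 0.356).

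Hoxa9, a regulator of blood stem cells that is often overexpressed in leukaemia, had values of 8.02, 7.85 and 7.95 on the Smo shRNA arrays, against 7.75, 8.10 and 7.75 on the control arrays. One control array lay above every Smo shRNA array, and the interval of the log2 difference ran from -0.13 to 0.29 (limma adjusted p = 0.620). Without control replicate 2 the difference was 0.22 and passed (limma adjusted p = 0.0442). Hoxa11, a gene of the forearm and uterus, had values of 7.88, 7.78 and 7.50 on the Smo shRNA arrays, against 7.65, 7.65 and 7.54 on the control arrays. It did not pass (log2 difference 0.11, interval -0.10 to 0.32, limma adjusted p = 0.441), except without Smo shRNA replicate 3 (0.22, adjusted p = 0.0336).

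Hoxa10, which acts in the uterus, in blood precursors and in bone-forming cells, had values of 8.42, 8.23 and 8.18 on the Smo shRNA arrays, against 8.54, 8.55 and 8.54 on the control arrays. The groups did not overlap, and the gene was 1.20-fold lower (log2 difference -0.27, SE 0.07, limma adjusted p = 0.00978). Its means, 8.28 in Smo shRNA and 8.55 in control cells, lay in the range of the blood, endothelial and epithelial markers. With 1 array left out, the call held without Smo shRNA replicate 1 and was lost in the other 5 fits (limma adjusted p = 0.0756 and 0.149 without Smo shRNA replicates 2 and 3, and 0.0835, 0.065 and 0.0575 without control replicates 1, 2 and 3). With brighter probe sets only (those from the 75th percentile of all probe sets upward) it was -0.17 and missed the threshold (adjusted p = 0.0798).

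The probe sets of Hoxa10 and Hoxa7 differed within the gene. In Hoxa10, 3 of 8 probe sets were lower by -0.98, -1.07 and -0.65, each past the threshold (limma adjusted p = 0.000134, 0.00451 and 0.000892), beside 12.4% of all probe sets. They read 7.87, 6.04 and 8.64 in Smo shRNA cells, against 8.85, 7.12 and 9.30 in control cells. The probe set at 6.04 lay below the filter level (6.56) in Smo shRNA cells and was kept through its control arrays. Its direction is therefore not independent of the filter. The brightest Hoxa10 probe set stood at 10.43 in Smo shRNA and 10.48 in control cells, a difference of -0.05 that did not pass. In Hoxa7, 3 of 10 probe sets were higher by 0.62, 0.75 and 0.68 (limma adjusted p = 0.0137, 0.000661 and 0.00378), beside 17.5% of all probe sets. These read 8.21, 9.43 and 8.33 in Smo shRNA cells, against 7.59, 8.67 and 7.66 in control cells. Another, bright Hoxa7 probe set was lower by -0.16 (11.87 in Smo shRNA and 12.03 in control cells, limma adjusted p = 0.0492).

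A test of each probe set against its own gene's value was added after these differences were seen. It called 0 of 178 Hox probe sets (30 at an unadjusted p below 0.05), beside 1.17% of all probe sets. The Hoxa10 probe set nearest the threshold had a relative difference of -0.71 (limma adjusted p = 0.0512), and the nearest of Hoxa7 had -0.24 (0.072) and 0.60 (0.0728). The positions of these probe sets on the transcripts were not used here. The log2 difference of Hoxa7 depended on which probe sets were kept and how they were joined. It was 0.23 with dim probe sets included (limma adjusted p = 0.013) and 0.18 as a mean of probe sets (0.0211), both past the threshold. With brighter probe sets only it was -0.06 and did not pass (limma adjusted p = 0.395).

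**Figure D3:**
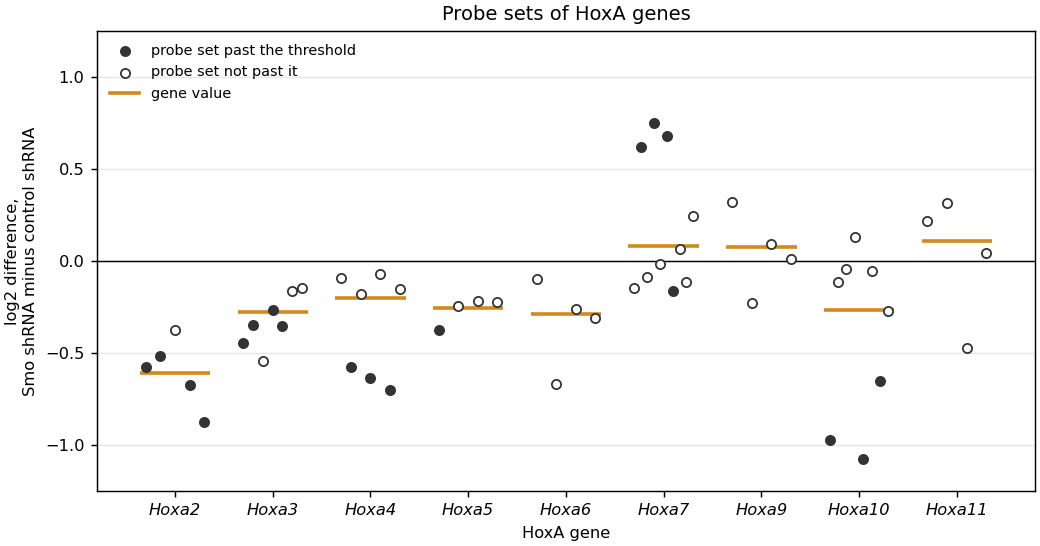
Log2 difference, Smo shRNA minus control shRNA, of every tested probe set of the HoxA genes. Filled points passed the threshold over all probe sets, open points did not, and orange lines are the gene values; the probe sets of Hoxa2 to Hoxa6 all lie below 0, and those of Hoxa7 and Hoxa10 spread over a wide range.

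Hoxaas2, a long non-coding RNA gene between Hoxa2 and Hoxa3 that overlaps the end of Hoxa3, was lower as well. Its values were 8.71, 8.88 and 8.98 on the Smo shRNA arrays, against 9.33, 9.5 and 9.51 on the control arrays. The groups did not overlap, and the gene was 1.5-fold lower (log2 difference -0.59, SE 0.08, limma adjusted p = 3.35e-05), in 15 of 15 alternative settings too. Since Hoxaas2 and Hoxa3 overlap, their signals cannot be fully told apart on the arrays. Of 16 listed non-coding RNA genes of the clusters, 5 were tested, 1 fell and 0 rose by limma (0 also at an unadjusted p below 0.05). Hoxaas3, which overlaps Hoxa5 and Hoxa6, had a log2 difference of -0.10 (limma adjusted p = 0.366), Hoxd3os1 one of -0.08 (0.657) and Hoxa11os one of 0.03 (0.891).

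HoxB had 57 of 70 probe sets (81.4%) at or above the filter level, beside 77.0% of all named probe sets, and 10 of 10 genes tested. None passed by limma (0 also at an unadjusted p below 0.05). Gene values ran from 7.17 to 9.28 in Smo shRNA and from 7.16 to 9.27 in control cells, and the median log2 difference was 0.02. Apart from Hoxb3, Hoxb6 and Hoxb7, they lay in the range of the blood, endothelial and epithelial markers (7.12 to 8.68 in Smo shRNA and 7.06 to 8.60 in control cells). In HoxA, Hoxa9, Hoxa10 and Hoxa11 lay in that range too. Some genes in the range held a bright probe set. Hoxb4 had one at 11.94 in Smo shRNA and 12.09 in control cells, and Hoxb8 one at 12.10 and 12.24. In HoxD, Hoxd1 had one at 12.19 and 12.31. Whether genes at such levels were expressed was not tested. The intervals of the 10 differences lay within -0.39 and 0.29, so changes of the size of the Hoxa2 difference lie outside them.

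The HoxB gene with the smallest adjusted p was Hoxb4, known for expanding blood stem cells when overexpressed. Its values were 7.60, 7.39 and 7.69 on the Smo shRNA arrays, against 7.75, 7.73 and 7.72 on the control arrays, with no overlap between the groups. The spread among the Smo shRNA arrays was wide beside the log2 difference of -0.17, which did not pass (limma adjusted p = 0.136). Hoxb4 probe sets at 6.46 and 6.52 in Smo shRNA cells, against 6.74 and 6.86 in control cells, were kept through the control arrays. Hoxb5 had a log2 difference of -0.16 (limma adjusted p = 0.308), with 1 of its 5 probe sets past the threshold in the lower direction. Hoxb2, Hoxb7 and Hoxb9 had log2 differences of 0.08, 0.09 and 0.10, none of which passed.

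The genes of HoxB with the numbers of the lowered HoxA genes can be set beside them. In group 2, the log2 difference was -0.61 for Hoxa2 and 0.08 for Hoxb2. In group 3 it was -0.28 for Hoxa3, 0.00 for Hoxb3 and 0.06 for Hoxd3. In group 4 it was -0.20 for Hoxa4 and -0.17 for Hoxb4. In group 5 it was -0.25 for Hoxa5, -0.16 for Hoxb5 and -0.20 for Hoxc5, and in group 6 it was -0.29 for Hoxa6, 0.04 for Hoxb6 and -0.04 for Hoxc6. Of these, Hoxa2, Hoxa3, Hoxa4, Hoxa5 and Hoxa6 passed. The differences between paralogs were not tested.

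HoxC had 29 of 54 probe sets at or above the median and gene values of 6.81 to 7.28 in Smo shRNA and 6.90 to 7.47 in control cells. These values lay in or below the range of the blood, endothelial and epithelial markers. Of 6 tested genes, 1 was lower and 5 did not pass (2 of the 6 had an unadjusted p below 0.05), and the median log2 difference was -0.20. Hoxc8, which sets the identity of lower thoracic vertebrae, had values of 7.12, 6.82 and 6.87 on the Smo shRNA arrays, against 7.23, 7.25 and 7.15 on the control arrays. It was 1.21-fold lower (log2 difference -0.28, SE 0.09, limma adjusted p = 0.0313), with no overlap. It was read by 3 probe sets, of which 2 lay lower, 1 lay higher and 0 passed alone. As a mean of probe sets, its difference was -0.13 and did not pass (limma adjusted p = 0.389).

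The Hoxc8 call is the least secure of the 7. It was lost in 6 of 6 fits that left out an array, with differences of -0.31 to -0.18 and limma adjusted p of 0.0605, 0.197 and 0.179 without Smo shRNA replicates 1, 2 and 3, and 0.0993, 0.102 and 0.0603 without control replicates 1, 2 and 3. Hoxc9, its neighbour, had 7.17, 7.0 and 6.99 on the Smo shRNA arrays, against 7.20, 7.21 and 7.37 on the control arrays, and did not pass (log2 difference -0.21, limma adjusted p = 0.0828) except without Smo shRNA replicate 1 (-0.27, 0.0314). Hoxc5 and Hoxc10 had log2 differences of -0.20 and -0.19, with limma adjusted p of 0.121 and 0.270. A Hoxc5 probe set at 6.52 in Smo shRNA and 6.68 in control cells was kept through the control arrays. For the 5 genes that did not pass, the intervals ran between -0.46 and 0.27.

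HoxD had 46 of 72 probe sets at or above the median and 7 of 8 genes tested. None passed by limma (0 also at an unadjusted p below 0.05), and the median log2 difference was -0.05. Gene values ran from 7.27 to 8.85 in Smo shRNA and from 7.30 to 8.92 in control cells. Apart from Hoxd8 and Hoxd11, they lay in the range of the blood, endothelial and epithelial markers. The limb genes Hoxd9, Hoxd10, Hoxd11 and Hoxd13 had log2 differences of -0.05, -0.04, -0.05 and -0.03, and the intervals of all 7 HoxD genes lay within -0.33 and 0.26. Hoxd10 passed without control replicate 3 (-0.21, limma adjusted p = 0.0479). The 13 probe sets annotated to both Hoxd4 and Hoxd3 had differences of -0.36 to 0.35, and 0 passed (limma, smallest adjusted p 0.212).

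**Figure D4:**
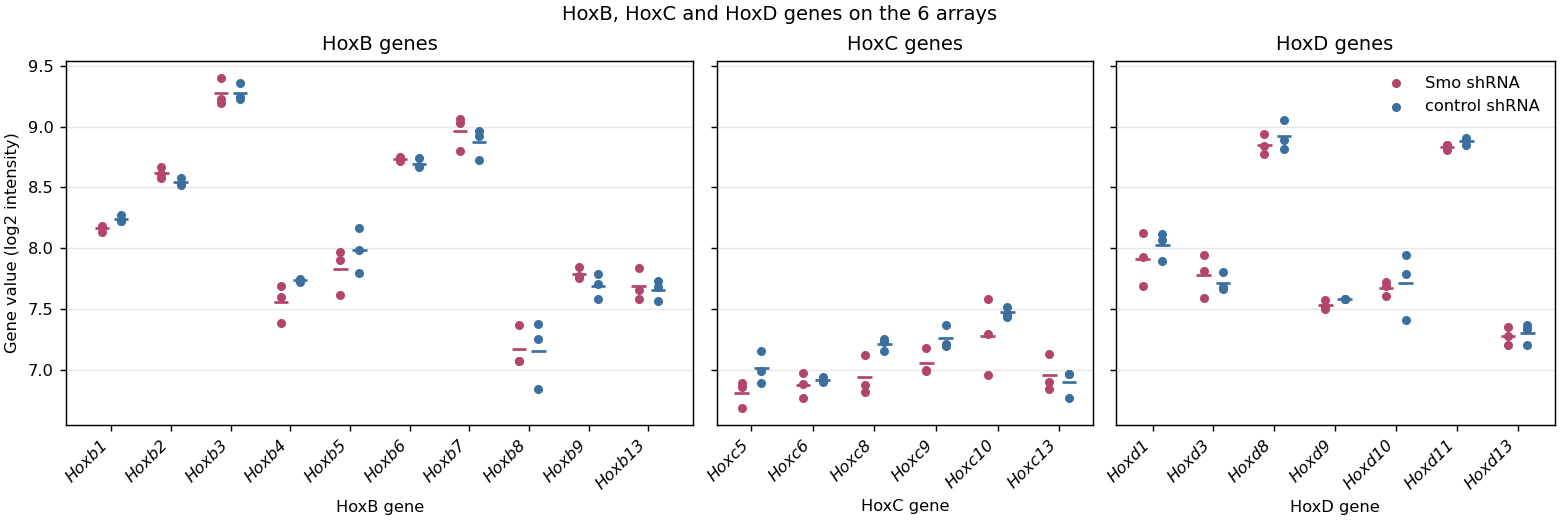
Gene values (log2 intensity) of the tested HoxB, HoxC and HoxD genes, 1 point per array and a bar at each group's mean, Smo shRNA left of control shRNA. Most genes overlap between the groups; the highest HoxC value is 7.58, on a Smo shRNA array for Hoxc10.

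Counted by separation alone, 11 of the 32 tested Hox genes (34.4%) had no overlap between the 3 and 3 arrays, beside 47.8% of all genes in either direction. The 11 were 5 HoxA, 2 HoxB, 3 HoxC and 1 HoxD genes, and 11 of the 11 lay lower in Smo shRNA cells. How many of all separated genes lay lower was not counted, so this direction has no share of all genes beside it. Among the 11, Hoxa6, Hoxa10, Hoxb4 and Hoxc5 hold probe sets kept through their control arrays. The direction of these genes is therefore not fully independent of the filter. Over the 185 Hox probe sets that were tested, 18 (9.73%) passed in the lower and 4 (2.16%) in the higher direction, beside 12.4% and 17.5% of all probe sets. HoxA held 16 of the 18 and 3 of the 4. The 4 became 2 without Smo shRNA replicate 2 or control replicate 2.

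The 5 members that could not be tested were Hoxa13, Hoxc4, Hoxc11, Hoxc12 and Hoxd12, with 0, 2, 1, 2 and 2 probe sets at or above the median. With dim probe sets included, Hoxc12 was lower (-0.32, limma adjusted p = 0.0125) and Hoxd12 higher (0.25, 0.038). With the bright probe sets alone, these had differences of -0.19 and 0.16 and did not pass (0.346 and 0.479).

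**Figure D5:**
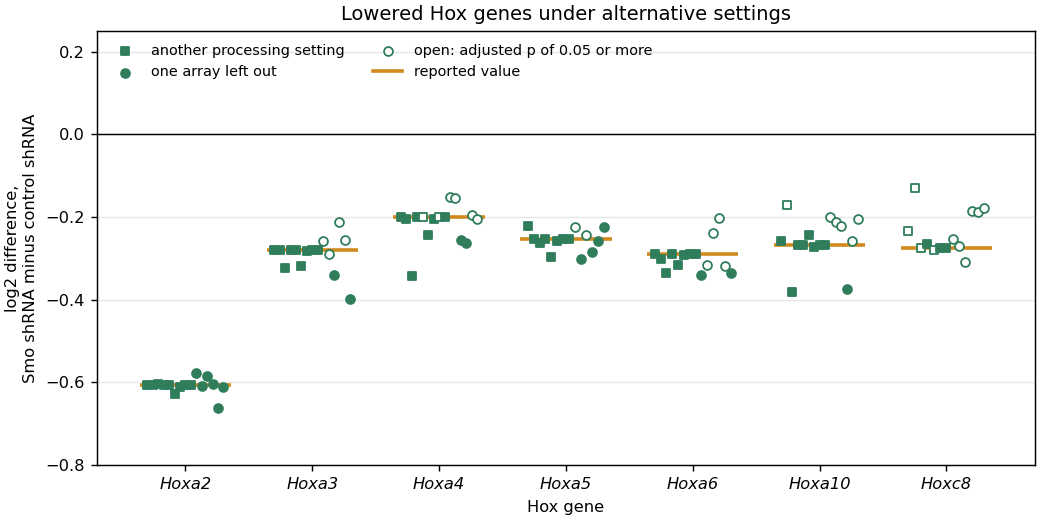
Log2 difference, Smo shRNA minus control shRNA, of the 7 lowered Hox genes under alternative processing (squares) and with 1 array left out (circles). Open symbols have an adjusted p of 0.05 or more and orange lines are the reported values; Hoxa2 is filled throughout at -0.66 to -0.58, and every symbol of the 7 genes lies below 0.

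Genes on either side of the clusters were read next. Of 25 such genes, 24 were tested, 5 rose (20.8%, beside 21.3% of all genes) and 7 fell (29.2%, beside 17.4%), with a median log2 difference of -0.03. Without control replicate 2 the number that rose was 3. Beyond the low-numbered end of HoxA, Skap2, an adaptor protein of immune cell signalling, averaged 10.61 ± 0.07 in Smo shRNA and 10.83 ± 0.07 in control cells (SD, n = 3 each) and fell (log2 difference -0.22, limma adjusted p = 0.00393). Snx10, an endosomal sorting protein, averaged 8.80 ± 0.04 in Smo shRNA and 9.36 ± 0.12 in control cells (SD, n = 3 each), and was lower by -0.56 (SE 0.07, limma adjusted p = 1.98e-05).

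At the other end of HoxA, Evx1, a homeobox gene, and Hibadh, an enzyme of valine breakdown, each had a log2 difference of -0.04 (limma adjusted p = 0.712 and 0.447). Further out, Tax1bp1, an autophagy receptor, averaged 10.76 ± 0.12 in Smo shRNA and 11.25 ± 0.06 in control cells (SD, n = 3 each; log2 difference -0.49, limma adjusted p = 1.36e-05). Around other clusters, Chn1 beside HoxD had a log2 difference of -0.81 (limma adjusted p = 1.53e-06) and Calcoco1 beside HoxC one of -0.40 (3.19e-06). Copz1 and Atp5g2 beside HoxC fell by 0.19 and 0.11 on the log2 scale. The 5 neighbours that rose were Lnpk beside HoxD (0.29), Cbx5 and Smug1 beside HoxC (0.15 and 0.28), and Cbx1 and Nfe2l1 beside HoxB (0.21 and 0.12). Neighbours of HoxC and HoxD thus moved in both directions. Copz1, Atp5g2 and the 5 raised neighbours were named after their values were seen.

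Hox proteins bind DNA with TALE homeodomain partners of the Pbx, Meis and Pknox families. Of 11 listed TALE genes, which include the related repressors Tgif1 and Tgif2, 10 were tested, 1 fell and 0 rose by limma (2 higher at an unadjusted p below 0.05). Of all genes, 17.4% fell and 21.3% rose. The number of TALE genes that rose was 2 with brighter probe sets only. It was 1 with at least 5 probe sets per gene and 1 with arrays centred on their medians. With quantile normalization repeated, 2 fell. Meis2 averaged 12.20 ± 0.07 in Smo shRNA and 12.45 ± 0.02 in control cells (SD, n = 3 each) and was 1.19-fold lower (log2 difference -0.25, SE 0.04, limma adjusted p = 9.99e-05). Meis3, Pknox2 and Pbx3 had log2 differences of 0.15, 0.15 and 0.09 and did not pass (limma adjusted p = 0.0563, 0.101 and 0.143).

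Trithorax proteins keep Hox genes active, and histone demethylases of this list remove the repressive mark of the Polycomb system. Of 15 such genes, 14 were tested, 10 rose, 0 fell by limma (0 also at an unadjusted p below 0.05) and 4 did not pass, with a median log2 difference of 0.20. The share that rose was 71.4%, beside 21.3% of all genes, and the number was 6 without control replicate 1. Wdr5, a core subunit of the H3K4 methyltransferase complexes, averaged 10.98 ± 0.01 in Smo shRNA and 10.44 ± 0.07 in control cells (SD, n = 3 each; log2 difference 0.55, limma adjusted p = 7.75e-07). Psip1, Dpy30 and Ash1l, which also serve this system, rose by 0.43, 0.31 and 0.30 on the log2 scale.

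Polycomb proteins keep Hox genes silent. Of 30 listed, 28 were tested, 10 rose (35.7%, beside 21.3% of all genes), 7 fell (25%, beside 17.4%) and 11 did not pass, with a median log2 difference of 0.09. Without control replicate 2 or 3, 6 rose. Without control replicate 1 or 3, 4 fell, and without Smo shRNA replicate 1 or 2, 3 fell. Phf19, an accessory subunit of Polycomb repressive complex PRC2, averaged 10.76 ± 0.05 in Smo shRNA and 9.70 ± 0.08 in control cells (SD, n = 3 each; log2 difference 1.07, limma adjusted p = 5.08e-09). Pcgf5, a subunit of a PRC1 variant, averaged 10.30 ± 0.04 in Smo shRNA and 9.28 ± 0.11 in control cells (SD, n = 3 each; log2 difference 1.02, limma adjusted p = 2.68e-08). Suz12, a core PRC2 subunit, and Pcgf6, of another PRC1 variant, rose by 0.53 and 0.39.

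Of 9 further regulators of Hox genes, 8 were tested, 3 rose (37.5%) and 1 fell (12.5%), beside 21.3% and 17.4% of all genes. Mllt3, a reader of acetylated histones in the super elongation complex, had a log2 difference of -0.48 (limma adjusted p = 4.15e-06). Gmnn, which restrains DNA replication licensing and interacts with Polycomb and Hox proteins, had one of 0.42 (0.000178). Mllt10, a cofactor of the H3K79 methyltransferase, had one of 0.29 (0.000201), and Ctcf, which bounds chromatin domains within the clusters, one of 0.17 (0.0157). These lists hold genes of several functions, and their link to the Hox values was not tested.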

How the data were processed

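Gene expression was measured in 6 RNA samples of OP9 cells, 3 Smo shRNA and 3 control shRNA, on exon arrays. The deposited table holds log2 values of 1256831 probe sets made by the authors. The range of 0 to 15.1 identifies the scale as log2. Array medians lay at 6.56 to 6.59. How the authors corrected background and normalized is not stated in the labels. In 1.65% of probe sets every array read 0.

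Names came from the platform annotation (318760 probe sets with 1 symbol, 6684 with several and left out, 931387 unnamed here). Of 22296 symbols, 18006 were current in RefSeq (GRCm38.p6), 4227 were updated through a synonym and 63 were kept as written. Probe sets with a mean at or above the median of all (6.56) were kept (245574). Genes with at least 3 of them (16871, median 11) were summarised per array by Tukey median polish. At most 0.0237% of values were identical between any 2 arrays. Across genes, arrays correlated at 0.996 to 0.998 within a group and at 0.979 to 0.981 between groups.

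The test was limma 3.58.1 under R 4.3.3 (lmFit, eBayes with a variance trend, two-sided, Benjamini-Hochberg over the whole table), which was tested on simulated data. The number of arrays limits precision. Called Hox genes are given in full with their neighbours and paralogs, and of each list up to 4 genes with the smallest adjusted p are named, plus neighbours of HoxA. The members and lists were chosen with earlier results of these data known. Alternatives covered the probe set filter, the joining rule, the minimum number of probe sets, scaling between arrays, the variance trend, a replicate block and leaving out each array. Promoters came from RefSeq, with no genome or protein sequences used here.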

Additional observations from a re-analysis of the deposited data

How the results depend on the processing

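Over 15 alternative settings, none of the 7 lowered Hox genes changed direction. Hoxa7, Hoxa9 and Hoxd10, which passed only in some alternative settings, had the other sign in others. The replicate block, with the title numbers as a term, left 7 Hox genes lower and 0 higher (3137 and 3787 genes over all) and changed no Hox call; deviations of same-numbered arrays correlated at 0.08, 0.10 and 0.39, so the numbers were not taken to pair the arrays. The count of lowered Hox genes was 4 when a gene needed 5 probe sets, a rule that tested 17 Hox genes. The count of higher Hox genes was 2 with no filter on dim probe sets (Hoxa7 and Hoxd12) and 1 with a mean of probe sets (Hoxa7), and the Hox probe sets called higher were 2 with the stricter filter, against 4. Leaving out 1 array gave 2 to 5 lowered and 0 to 1 higher Hox genes, 2 to 4 Hox probe sets called higher, and 11 to 15 lowered genes on the cofactor, regulator, non-coding and flanking lists, against 17. Over all genes it gave 2075 to 2770 lower and 2669 to 2913 higher. Fewer arrays leave less power, and other causes of these changes were not tested. Hoxa4 missed the threshold with 1 probe set as the minimum (limma adjusted p = 0.0523) and with no variance trend (0.0598), Hoxc8 passed in 3 of 13 settings, and Hoxc5 passed with a mean of probe sets (-0.30, 0.0268). Signal over background limits members with few probe sets above the filter level, 5 of which could not be tested.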
